A study of Mus musculus with 8 samples.

Results

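The 10 genes described here belong to the amino acid and stress response that the transcription factor ATF4 drives: the transporter genes Slc7a11, Slc7a5, Slc3a2 and Slc7a1, the enzyme genes Asns and Chac1, and the regulator genes Trib3, Ddit3, Atf5 and Sesn2. They were taken by gene symbol from the platform annotation. Each had 1 probe set, and all 10 were measured. They are 10 of 19938 named genes, and the arrays held 35556 probe sets. No filter on low values was applied.

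RNA came from primary mouse embryonic fibroblasts, cells cultured from embryos, and was hybridised to Affymetrix microarrays. Line A (MEF10) with tamoxifen expressed PKM1, and line A without tamoxifen expressed PKM2. Line B (MEF16) likewise expressed PKM1 with tamoxifen and PKM2 without it, and each of these 4 groups held 2 samples. PKM1 and PKM2 are splice isoforms of the glycolytic enzyme pyruvate kinase, and the design asks how transcripts differ between cells that make one and cells that make the other. Every PKM1 sample had tamoxifen and no PKM2 sample had it, so the drug and the isoform cannot be told apart. The dose of tamoxifen, its duration and the allele behind the exchange are not given in the sources used here. Nor do the labels state that the samples of a group came from separate cultures. The p-values therefore measure only how far these samples spread, and that spread may be technical.

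ATF4 is translated more efficiently when a kinase phosphorylates the initiation factor eIF2, as happens when amino acids run short, when proteins misfold in the endoplasmic reticulum, or when viral RNA is sensed. It then raises transcription of genes that import amino acids, make them, charge tRNAs with them and, under lasting stress, promote cell death. In cultured fibroblasts this program is known to follow the supply of amino acids and cystine in the medium and the demand of growing cells.

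ATF4 binds DNA as a dimer with C/EBP proteins at composite elements, here searched as TGATGNAA on both strands. The promoter table used, from RefSeq on build GRCm38.p6, spans 250 bases before to 50 bases after each start, and 9 of the 10 genes have an entry. Matches lay in the promoters of 4 of them, Slc7a11, Asns, Chac1 and Trib3, against 3.97% of all 32851 promoters. By gene, 3.62% of the 15614 tested genes with an entry had a match. The 10 genes were chosen as ATF4-response genes, so their share of matches is no independent result. The stretches around the matches are shown because they include Slc7a11, the gene that passed the test below, and Asns, whose conditions did not overlap. The windows are Slc7a11 chr3:50443614-50443733, Asns chr6:7693210-7693329 and Trib3 chr2:152344031-152344054, all on the minus strand, and Chac1 chr2:119350992-119351111 on the plus strand. Capitals mark the matches, in either orientation.
Slc7a11: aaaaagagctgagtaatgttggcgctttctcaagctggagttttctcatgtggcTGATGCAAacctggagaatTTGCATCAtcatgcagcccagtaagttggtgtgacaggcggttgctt
Asns: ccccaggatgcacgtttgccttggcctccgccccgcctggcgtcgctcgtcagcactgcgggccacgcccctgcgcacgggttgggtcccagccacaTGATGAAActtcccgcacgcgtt
Chac1: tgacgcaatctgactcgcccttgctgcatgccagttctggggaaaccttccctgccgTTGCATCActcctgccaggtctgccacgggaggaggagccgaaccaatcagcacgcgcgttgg
Trib3: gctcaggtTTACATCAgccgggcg
Slc7a11 held 2 matches on opposite strands, 66 to 59 and 47 to 40 bases before the start. The Asns match lay 23 to 16 bases before the start, the Chac1 match 193 to 186 bases before it, and the Trib3 match 15 to 22 bases after it. The start given for Slc7a11 lies inside the annotated span of the gene (chr3:50364936-50499087). A match describes these letters and is no measured site. Of the 565 tested genes with a match, 11 passed the test of tamoxifen over both lines, 5 of them lower. That is 1.95%, against 1.32% of all genes tested, with or without a promoter entry.

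Marker genes were read in all 8 samples. Over the samples, the mean log2 value was 10.35 to 10.73 for 10 fibroblast markers, 6.59 to 6.73 for 11 epithelial and mammary markers and 6.82 to 7.00 for 7 endothelial markers. Levels of different probe sets are not comparable on an array, so these ranges do not settle the cell type. Some label fields name mammary tumor tissue, but the titles and the design text name embryonic fibroblasts. Lyz2, a macrophage lysozyme, was 2.14 higher in line B than in line A without tamoxifen (log2, limma adjusted p = 0.0041). With tamoxifen Lyz2 was 1.53 higher in line B (limma adjusted p = 0.015), and the mean over 11 macrophage and blood cell markers was 6.96 to 7.18 in line B, against 6.48 to 6.65 in line A. Pkm, whose probe set was not resolved into isoforms here, was at 10.86 and 10.74 in line A PKM1, 11.19 and 10.99 in line A PKM2, 11.41 and 10.75 in line B PKM1, and 10.82 and 11.21 in line B PKM2. One axis held 61.8% of the variance within groups. Line B PKM1 replicate 1 and line B PKM2 replicate 2 lay together at one end of it (0.493 and 0.452), and line B PKM1 replicate 2 and line B PKM2 replicate 1 at the other (-0.493 and -0.452).

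Across both lines the cystine transporter gene Slc7a11 fell with tamoxifen, and 9 of the 10 genes had a change below 0. Values are log2 expression values and changes are PKM1 with tamoxifen minus PKM2 without, from limma, with p-values adjusted by Benjamini-Hochberg across all 19938 genes and called at 0.05. The only 1 of the 10 that passed was Slc7a11, in a comparison where 1.32% of all genes passed and 0.512% passed as lower. At an unadjusted p under 0.05 there were 4 of the 10, against 1964 of all genes. The median change of the 10 was -0.27, and that of all genes was -0.01, with 55.4% of all genes below 0. In bulk samples, fewer cells of a type and less RNA per cell cannot be told apart.

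**Figure D1:**
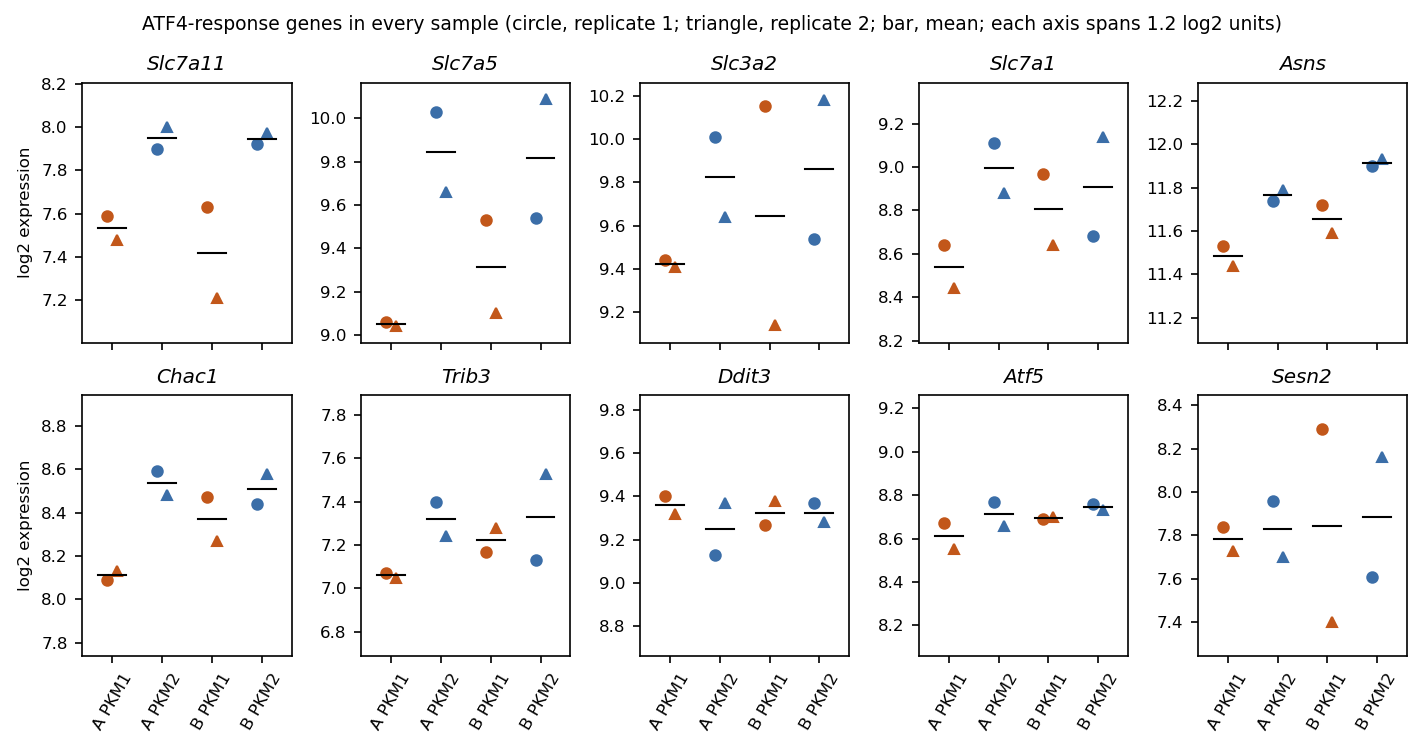
Log2 expression of the 10 ATF4-response genes in each of the 8 samples (vertical axis, 1.2 log2 units in every panel; circles replicate 1, triangles replicate 2, bars group means). The PKM1 samples of Slc7a11, Slc7a5 and Asns all lie below the PKM2 samples, while Slc3a2 and Sesn2 are split within line B.

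Slc7a11 encodes xCT, the light chain that exchanges glutamate for extracellular cystine and so feeds glutathione synthesis. In line A it was at 7.59 and 7.48 in PKM1 samples, against 7.90 and 8.00 in PKM2 samples. In line B it was at 7.63 and 7.21 in PKM1 samples, against 7.92 and 7.97 in PKM2 samples. All 4 PKM1 samples thus lay below all 4 PKM2 samples, and the lines overlapped within each condition. The lowest value, 7.21 in line B PKM1 replicate 2, lay within the range of the array medians, 7.17 to 7.24. No detection calls were used.

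The PKM1 samples averaged 7.48 ± 0.19 and the PKM2 samples 7.95 ± 0.05 (SD, n = 4 each), and Slc7a11 was 1.39-fold lower in PKM1 (log2 change -0.47, SE 0.09, 95% interval -0.67 to -0.27, limma adjusted p = 0.037). This call was lost when some single arrays were left out. Without a line A array, fewer of all genes passed as well. In limma the adjusted p was 0.11 without line A PKM1 replicate 1, 0.17 without line A PKM1 replicate 2, 0.10 without line A PKM2 replicate 1 and 0.14 without line A PKM2 replicate 2. Of the line B samples, leaving out PKM2 replicate 1 gave 0.061 and leaving out PKM2 replicate 2 gave 0.10. Over all 19 alternatives the adjusted p lay between 0.0026 and 0.17. The change stayed between -0.54 and -0.38 in all of these.

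Slc7a5 encodes LAT1, the light chain that takes up leucine and other large neutral amino acids. It was at 9.06 and 9.04 in line A PKM1 samples, against 10.03 and 9.66 in line A PKM2 samples. In line B it was at 9.53 and 9.10 in PKM1 samples, against 9.54 and 10.09 in PKM2 samples. The conditions did not overlap, but line B PKM1 replicate 1 and line B PKM2 replicate 1 were nearly equal.

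The change of Slc7a5, the lowest of the 10 genes, was -0.65 (SE 0.14, 95% interval -0.96 to -0.33) and missed the threshold (limma adjusted p = 0.065). Slc7a5 passed when line B PKM1 replicate 1 was left out (-0.76, adjusted p = 0.018) or PKM2 replicate 1 of the same line (-0.79, adjusted p = 0.014). Over the 19 alternatives its change lay between -0.79 and -0.55. In alternatives that kept all 8 samples, its adjusted p in limma lay between 0.0042 with array weights and 0.12 with line as a random block. Leaving out any single line A sample raised the adjusted p further.

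Slc3a2 encodes CD98 heavy chain (4F2hc), the partner that carries both xCT and LAT1 to the plasma membrane. It was at 9.44 and 9.41 in line A PKM1 samples, against 10.01 and 9.64 in line A PKM2 samples. In line B it was at 10.15 and 9.14 in PKM1 samples, against 9.54 and 10.18 in PKM2 samples. Line A was separated by condition, whereas each line B group had a high and a low sample.

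With an SE of 0.21 and an interval of -0.76 to 0.15, the change of Slc3a2 over both lines was -0.31 (limma adjusted p = 0.72). It was -0.53 without line B PKM1 replicate 1 and -0.13 without line B PKM1 replicate 2.

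Slc7a1 encodes CAT1, which imports arginine and lysine. In line A it was at 8.64 and 8.44 in PKM1 samples, against 9.11 and 8.88 in PKM2 samples. In line B it was at 8.97 and 8.64 in PKM1 samples, against 8.68 and 9.14 in PKM2 samples. Its PKM1 samples were the lower ones in line A, and the conditions overlapped in line B. The change was -0.28 (SE 0.13, limma adjusted p = 0.51).

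Asns encodes asparagine synthetase, a classical target of the amino acid response. It was at 11.53 and 11.44 in line A PKM1 samples, against 11.74 and 11.79 in line A PKM2 samples. Its line B levels were 11.72 and 11.59 in PKM1 samples, against 11.90 and 11.93 in PKM2 samples. The conditions did not overlap within or across lines, although the highest PKM1 sample lay only just below the lowest PKM2 sample. The PKM1 samples averaged 11.57 ± 0.12 and the PKM2 samples 11.84 ± 0.09 (SD, n = 4 each). The change was -0.27 (SE 0.06, 95% interval -0.41 to -0.13, limma adjusted p = 0.088).

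Chac1 encodes an enzyme that breaks down glutathione and is induced by ATF4 under endoplasmic reticulum stress. It was at 8.09 and 8.13 in line A PKM1 samples, against 8.59 and 8.48 in line A PKM2 samples. Line B had 8.47 and 8.27 in PKM1 samples, against 8.44 and 8.58 in PKM2 samples. The line A samples were separated by condition and the line B samples were not. The change was -0.28 (SE 0.08, 95% interval -0.47 to -0.09, limma adjusted p = 0.21).

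Trib3 encodes a pseudokinase that restrains ATF4 and AKT signalling. It was at 7.07 and 7.05 in line A PKM1 samples, against 7.40 and 7.24 in line A PKM2 samples. The line B values were 7.17 and 7.28 in PKM1 samples, against 7.13 and 7.53 in PKM2 samples. These values lie close to the array medians, no detection calls were used, and a dim probe set understates a change. The change was -0.18 (SE 0.09, limma adjusted p = 0.59).

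Ddit3 encodes CHOP, the factor through which lasting stress promotes cell death. It was at 9.40 and 9.32 in line A PKM1 samples, against 9.13 and 9.37 in line A PKM2 samples. Its line B levels were 9.27 and 9.38 in PKM1 samples, against 9.37 and 9.28 in PKM2 samples. It was the only 1 of the 10 genes with a change above 0, and its conditions overlapped in both lines (0.05, SE 0.08, 95% interval -0.11 to 0.22, limma adjusted p = 0.89). Its change was -0.01 without line A PKM2 replicate 1.

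Atf5 encodes a relative of ATF4 that is known to act in the mitochondrial stress response. It was at 8.67 and 8.55 in line A PKM1 samples, against 8.77 and 8.66 in line A PKM2 samples. Line B had 8.69 and 8.70 in PKM1 samples, against 8.76 and 8.73 in PKM2 samples. The line B values lay close together without overlap, and in line A the conditions overlapped by a narrow margin. The change was -0.08 (SE 0.06, 95% interval -0.22 to 0.07, limma adjusted p = 0.80).

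Sesn2 encodes a leucine sensor that restrains mTORC1. It was at 7.84 and 7.73 in line A PKM1 samples, against 7.96 and 7.70 in line A PKM2 samples. The line B values were 8.29 and 7.40 in PKM1 samples, against 7.61 and 8.16 in PKM2 samples. The conditions overlapped in both lines, and the line B samples of a group lay far apart. The change was -0.04 (SE 0.18, 95% interval -0.44 to 0.35, limma adjusted p = 0.97), and it was 0.13 without line B PKM1 replicate 2.

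**Figure D2:**
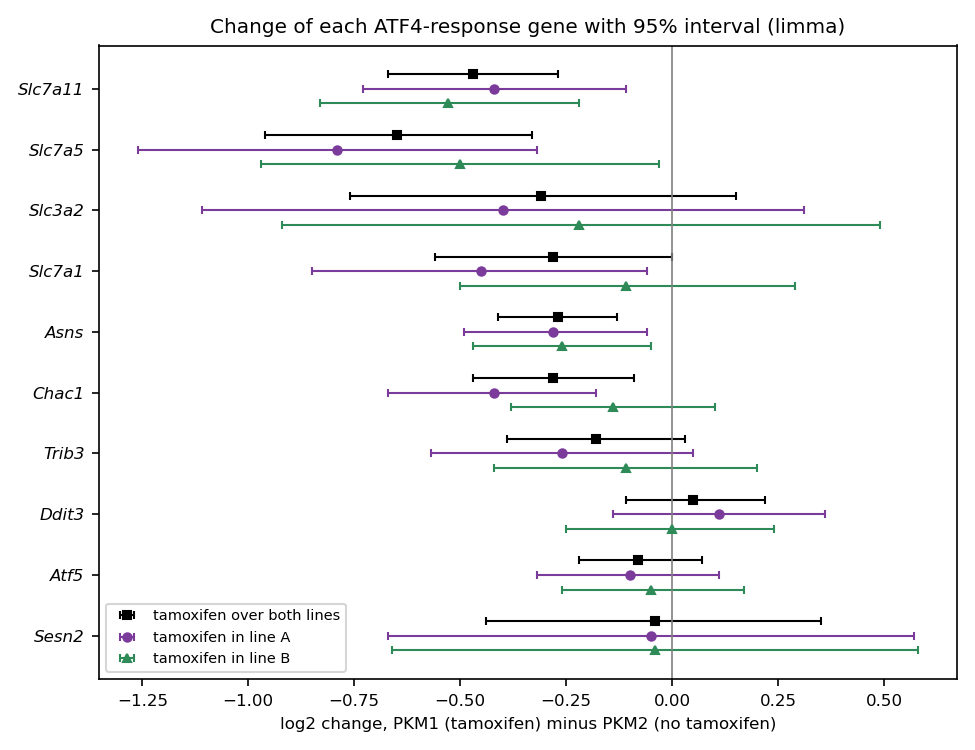
Log2 change of each ATF4-response gene, PKM1 with tamoxifen minus PKM2 without (horizontal axis), over both lines and in each line, with 95% intervals from limma. Over both lines Slc7a11 (-0.47) passed, Slc7a5 had the lowest change (-0.65), and the intervals of Slc7a11, Slc7a5, Asns and Chac1 lie below 0.

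Samples of the conditions did not overlap, with PKM1 lower, for 3 of the 10 genes across both lines, Slc7a11, Slc7a5 and Asns, against 2.74% of all genes. Within line A this held for 7 of the 10, all but Ddit3, Atf5 and Sesn2, against 26.2% of all genes. Within line B it held for 4 of the 10, Slc7a11, Slc7a5, Asns and Atf5, against 12.9% of all genes. The 10 genes were chosen with earlier results of these data known, and many of them correlate over the samples. Counts among them therefore carry no independent support.

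In the line A contrast, with the spread estimated from all 8 samples, 0 of the 10 genes passed in limma, where 0.502% of all genes did. Their median change was -0.34, against -0.02 for all genes, and 5 had an unadjusted p under 0.05, against 1614 of all genes. Slc7a5 had the lowest change (-0.79, SE 0.21, limma adjusted p = 0.21), and Chac1 (-0.42, SE 0.11) the smallest adjusted p in limma, 0.19. Fitted on the 4 samples of line A only, Slc7a11, Slc7a5 and Chac1 passed, and 543 of 19938 genes did, against 100 with all samples.

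In the line B contrast, set up likewise, 0 of the 10 passed in limma, where 0.0201% of all genes did. All 10 changes were at or below 0 there, where 51.8% of all genes were below 0, and that of Ddit3 was -0.0 (SE 0.11). The 10 had a median of -0.12, against -0.01 for all genes, and 3 had an unadjusted p under 0.05, against 962 of all genes. The median was -0.30 without line B PKM1 replicate 1, -0.31 without PKM2 replicate 1, -0.06 without PKM1 replicate 2 and -0.05 without PKM2 replicate 2. Slc7a11 had the lowest change (-0.53, SE 0.14, limma adjusted p = 0.52), followed by Slc7a5 (-0.50, SE 0.21). With line B PKM1 replicate 2 left out, the line B changes of Slc3a2 (0.29), Slc7a1 (0.06) and Sesn2 (0.40) turned positive, and with PKM2 replicate 2 left out, those of Slc3a2 (0.10), Slc7a1 (0.12), Trib3 (0.09) and Sesn2 (0.23) did.

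The difference of the tamoxifen effect, line B minus line A, passed for 0 of the 10 genes in limma, as for 0.0% of all genes. It was between -0.11, for Ddit3 and for Slc7a11, and 0.35 for Slc7a1 (SE 0.25, 95% interval -0.21 to 0.91). No unadjusted p among the 10 was under 0.05, against 565 of all genes. The intervals reach changes as large as those measured, so the lines are not shown to respond alike.

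The order of the Slc7a11 group means was 7.95 in line A PKM2 and line B PKM2, 7.53 in line A PKM1 and 7.42 in line B PKM1. The neighbours of the same condition overlapped. Between the lines, 0 of the 10 genes passed with tamoxifen in limma (0.532% of all genes did), with line B minus line A between -0.11 and 0.27. Without tamoxifen 0 passed as well (0.326% of all genes did), with differences between -0.08 and 0.15. Unadjusted p-values under 0.05 numbered 1 and 0 of the 10, against 1340 and 1036 of all genes.

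**Figure D3:**
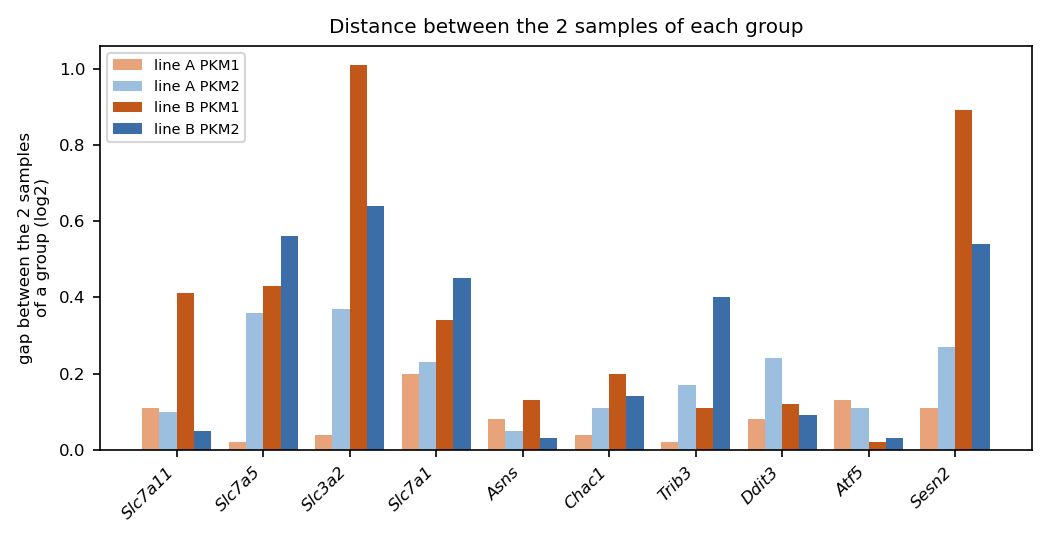
Gap between the 2 samples of each group (vertical axis, log2) for the 10 ATF4-response genes. The gaps reach 1.01 in line B PKM1 and 0.64 in line B PKM2 for Slc3a2, and 0.89 and 0.54 for Sesn2.

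In line B PKM1 the gap between samples was widest for the heavy chain gene Slc3a2 (1.01) and the leucine sensor gene Sesn2 (0.89), as the plot of gaps shows. In line B PKM2 it was widest for Slc3a2 (0.64) and Slc7a5 (0.56), followed by Sesn2 (0.54). For 4 of the 10 genes, Slc3a2, Slc7a1, Chac1 and Sesn2, line B PKM1 replicate 1 and line B PKM2 replicate 2 were both above the other line B samples. That order held for 24.6% of all genes, and it follows the axis of variance within groups given above. Leaving out both line B PKM1 replicate 1 and line B PKM2 replicate 2 was an alternative chosen after seeing the data. The changes over both lines were then -0.51 for Slc7a11 and -0.67 for Slc7a5. With the opposite pair left out, they were -0.40 for Slc7a11 and -0.72 for Slc7a5. Each pair is 1 end of that axis, so leaving it out removes spread within line B. More calls without a pair therefore add no support for these genes.

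**Figure D4:**
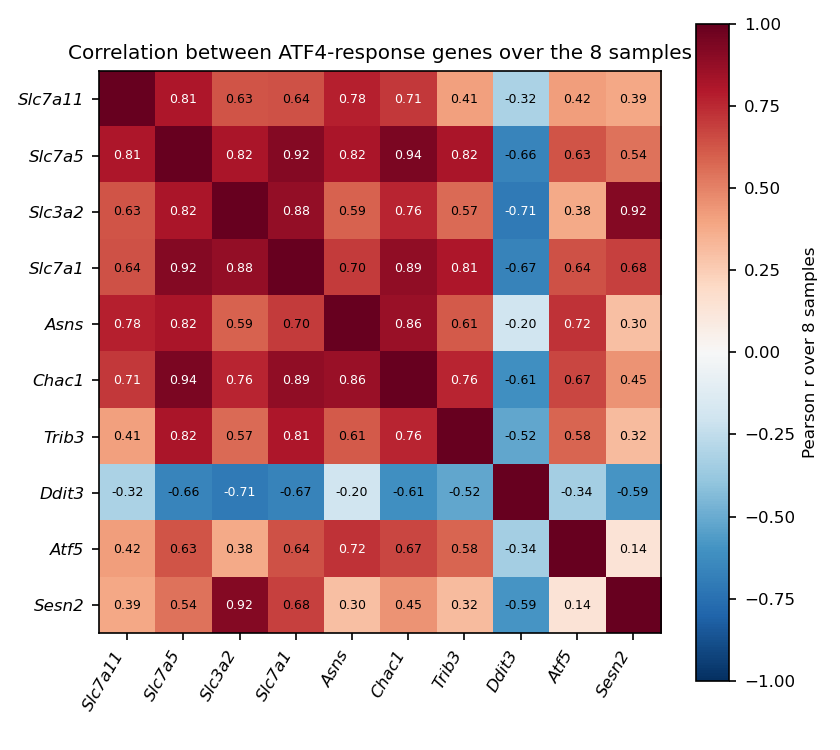
Pearson correlation between each pair of the 10 ATF4-response genes over the 8 samples (both axes list the genes, colour and number give r). The lowest r between Ddit3 and another gene is -0.71, and the highest r is that of Slc7a5 with Chac1, 0.94.

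Over the 8 samples, which share the same arrays and groups, 11 of the 45 gene pairs had a Pearson r above 0.8. Slc7a5 correlated with Chac1 at 0.94 and with Slc7a1 at 0.92, and Slc3a2 with Sesn2 at 0.92. Without Ddit3 the 36 pairs had r between 0.14 and 0.94, with a median of 0.68, and the 9 pairs with Ddit3 lay between -0.71 and -0.20. When group means were removed, r was 1.00 for Slc3a2 with Sesn2 and 0.95 for Slc7a11 with Asns. For other pairs r rose, as for Slc7a11 with Sesn2 (0.39 to 0.8), or fell. It fell for Slc7a5 with Asns (0.82 to 0.43) and for Asns with Atf5 (0.72 to 0.07). The 2 samples of a group then deviate by equal and opposite amounts. The r values without group means therefore rest on fewer independent values than the 8 samples. These values describe the arrays and carry no test.

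The mean of the 10 genes, each scaled to mean 0 and SD 1, was -0.57 and -1.04 in line A PKM1 samples, against 0.57 and 0.22 in line A PKM2 samples. In line B it was 0.27 and -0.64 in PKM1 samples, against 0.15 and 1.03 in PKM2 samples. The conditions were separated in line A and overlapped in line B, where PKM1 replicate 1 exceeded PKM2 replicate 1.

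Among 2664 genes with an SD of at least 0.2 over the 8 samples, those most like Slc7a11 by Pearson r were Slc38a4 (0.975), Aldh1l2 (0.973), Psat1 (0.966), Mthfd1l (0.964) and Cenpn (0.961). Those most like the mean of the 10 genes were Lrp8 (0.99), Heatr5a (0.98), E2f7 (0.978), Shmt2 (0.977) and Pold2 (0.976). All of these r values rest on the same 8 samples and are the highest of those compared, so they are high in part by selection.

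Among 38 other measured targets of ATF4, 3 fell over both lines in limma, 0 rose and 35 did not pass. Bcat1, which transfers the amino group of branched-chain amino acids, was at 8.98 and 8.82 in line A PKM1 and at 9.33 and 9.17 in line B PKM1, against 9.67 and 9.59 in line A PKM2 and 9.54 and 9.74 in line B PKM2. It fell by 0.56 (SE 0.09, limma adjusted p = 0.018). Bcat1 also fell in the line A contrast (-0.73, SE 0.11, limma adjusted p = 0.037). The mitochondrial folate enzyme genes Mthfd2 (-0.43, SE 0.07, limma adjusted p = 0.021) and Aldh1l2 (-0.65, SE 0.12, limma adjusted p = 0.030) fell as well.

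None of these 3 calls was kept in limma when a single line A sample was left out, with adjusted p-values of 0.082 to 0.094 for Bcat1, 0.068 to 0.11 for Mthfd2 and 0.11 to 0.15 for Aldh1l2. Mthfd2 and Aldh1l2 also missed without line B PKM2 replicate 2 (0.066 and 0.089). With line as a random block Mthfd2 (0.13) and Bcat1 (0.065) missed, and with no term for the line Mthfd2 did (0.087). Of the 38 genes, 29 had a change below 0, and their median was -0.11 over both lines, -0.14 in line A and -0.11 in line B. Psat1, an enzyme of serine synthesis, had a change of -0.36 (SE 0.09, limma adjusted p = 0.10).

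Of 34 other amino acid transporter genes, 1 fell over both lines, 0 rose and 33 did not pass. Slc38a4, a sodium-coupled transporter of neutral amino acids, was at 9.65 and 9.59 in line A PKM1 and 9.76 and 9.41 in line B PKM1, against 10.18 and 10.24 in line A PKM2 and 10.11 and 10.33 in line B PKM2. Its conditions did not overlap, and it fell by 0.61 (SE 0.09, limma adjusted p = 0.010). In limma its adjusted p was 0.055 without line A PKM1 replicate 1, 0.064 without line A PKM1 replicate 2 and 0.052 without line A PKM2 replicate 2. The median of the 34 genes was -0.06.

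Slc7a2, a relative of Slc7a1 that also carries cationic amino acids, was at 8.70 and 8.75 in line A PKM1, against 8.14 and 8.24 in line A PKM2. It rose in line A (0.53, SE 0.09, limma adjusted p = 0.048), and in line B it was at 7.85 and 7.86 in PKM1, against 7.78 and 7.76 in PKM2. With tamoxifen it was 0.87 lower in line B than in line A (log2 difference -0.87, SE 0.09, limma adjusted p = 0.0058). The glutamate transporter gene Slc1a3 was lower in line B without tamoxifen (-0.91, SE 0.13, limma adjusted p = 0.032).

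Of 17 relatives of the 10 genes, Slc7a2 and Atf4 among them, 0 passed over both lines in limma, and their median was -0.03. Beside Slc7a2 (0.31, limma adjusted p = 0.21), values included Sesn3 (0.27), a sestrin, Slc7a6 (-0.24), a light chain that partners Slc3a2, and Chac2 (0.23), a second glutathione-degrading enzyme.

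The factor's own transcript, Atf4, was at 9.17 and 9.13 in line A PKM1, against 9.21 and 9.41 in line A PKM2. In line B it was at 9.22 and 8.86 in PKM1, against 9.34 and 9.32 in PKM2. The conditions overlapped narrowly across the lines and the change was -0.23 (SE 0.09, limma adjusted p = 0.39). ATF4 is known to be controlled in large part at translation, which arrays do not measure.

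Of 18 measured eIF2 kinases and regulators of the integrated stress response, 1 rose, 0 fell and 17 did not pass. Eif2ak2, which encodes the kinase PKR and is also induced by interferon, was at 10.22 and 10.38 in line A PKM1 and 10.13 and 10.32 in line B PKM1, against 9.60 and 9.73 in line A PKM2 and 9.89 and 9.35 in line B PKM2. It rose by 0.62 (SE 0.11, limma adjusted p = 0.025), and the adjusted p was 0.09 to 0.13 without a single line A sample and 0.059 without line B PKM1 replicate 2. The kinase genes Eif2ak3 (-0.03, SE 0.07) and Eif2ak4 (-0.08, SE 0.06), PERK and GCN2, did not pass.

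Among 27 genes of amino acid sensing by mTORC1, 1 rose, 0 fell and 26 did not pass, with a median of 0.03. Rragd, a Rag GTPase that recruits mTORC1 to lysosomes, was at 7.60 and 7.38 in line A PKM1 and 7.33 and 7.27 in line B PKM1, against 6.78 and 6.92 in line A PKM2 and 7.00 and 6.90 in line B PKM2. It rose by 0.50 (SE 0.08, limma adjusted p = 0.021), with an adjusted p of 0.087 to 0.099 without a single line A sample. It also rose in the line A contrast (0.64, SE 0.11, limma adjusted p = 0.048). All Rragd values of PKM2 samples lay below the array medians, and no detection calls were used.

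On the lists of tRNA synthetases, unfolded protein response genes, and NRF2 and glutathione genes, 0 genes passed over both lines in limma. Of 18 measured aminoacyl-tRNA synthetases, which charge tRNAs, 16 had a change below 0 (median -0.12), led by Mars1 (-0.39, SE 0.11, limma adjusted p = 0.17). Of 22 endoplasmic reticulum chaperones and other unfolded protein response genes, 19 lay below 0 (median -0.09), and the smallest p was that of Pdia6, a protein disulfide isomerase gene (-0.27, SE 0.09, limma adjusted p = 0.24). The 25 NRF2 and glutathione genes, which share Slc7a11 as a known target of NRF2, had a median of 0.01, with 12 below 0, and the smallest p was that of Gsta4, a glutathione transferase gene (0.27, SE 0.08, limma adjusted p = 0.23).

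**Figure D5:**
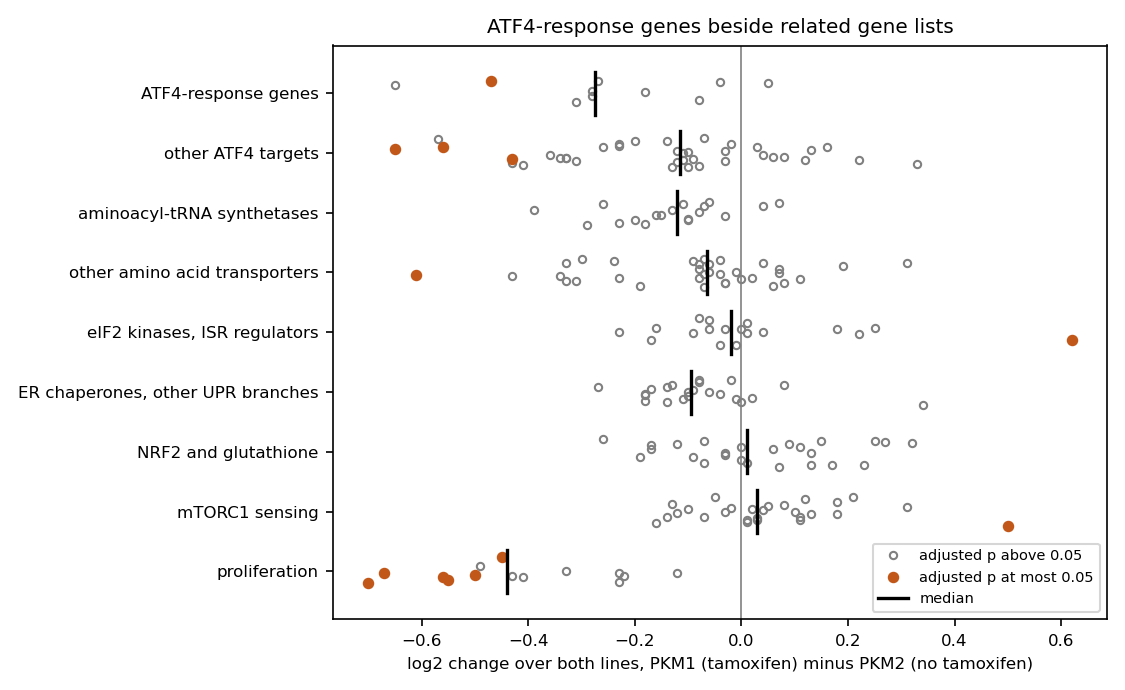
Log2 change over both lines, PKM1 with tamoxifen minus PKM2 without (horizontal axis), of single genes (points, filled where the limma adjusted p was at most 0.05) on each list, with the list's median as a bar. The 10 ATF4-response genes have a median of -0.27 and the proliferation genes one of -0.44.

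Proliferation markers moved with the same contrast. Of 14 measured, 6 fell in limma (Mki67, Ccna2, Bub1, Birc5, Kif11 and Mcm6) and 8 did not pass. Among all genes 0.512% passed as lower. All 14 markers had a change below 0, and the median was -0.44. In the line A contrast Mki67 (-0.91), Ccna2 (-0.81) and Kif11 (-0.70) fell. Their mean per sample was 9.36 to 9.37 in line A PKM1 and 9.55 to 9.56 in line B PKM1, against 9.88 to 9.89 in line A PKM2 and 9.85 to 9.89 in line B PKM2. Macrophage and blood cell markers had 2 of 11 below 0 and a median of 0.09. Of 10 fibroblast markers 1 rose over both lines and 9 did not pass, 6 were below 0, and the median was -0.02. The matrix gene Dcn rose by 0.88 (SE 0.15, limma adjusted p = 0.021). In the line A contrast Dcn (1.30) and the protease gene Fap (1.01) rose, and the median of the 10 fibroblast markers was -0.01. Without tamoxifen Dcn (0.87), Fap (1.2) and Thy1 (0.64) were higher in line B than in line A. The other 7 fibroblast markers did not pass there, 6 of the 10 fibroblast markers were below 0, and their median was -0.05. Of 7 endothelial markers 1 fell, Erg, by 0.44 (SE 0.07, limma adjusted p = 0.021), 6 did not pass, and the median was -0.04. Whether the calls of these proliferation and marker genes hold when a sample is left out was not examined. Whether any of these genes bears on the changes of the 10 genes was not tested.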

How the data were processed

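RNA of 8 samples of mouse embryonic fibroblasts was hybridised to Affymetrix arrays. The values were RMA-normalized in Affymetrix software by the authors, per the labels, and RMA gives log2 expression values. They span 2.61 to 14.12. RMA summarises the probes of a set after quantile normalization. Differences between dim probe sets are compressed on arrays. Genes were named from the platform annotation: 21789 probe sets had 1 symbol, 1621 several and 12146 none. For the 999 genes with several probe sets the brightest was used, leaving 19938 genes.

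Tests used limma 3.58.1 in R 4.3.3 (functions lmFit and eBayes), and p-values were adjusted by Benjamini-Hochberg across all genes. Over both lines the model held terms for line and tamoxifen (5 residual degrees of freedom), and the other comparisons were contrasts of the 4 group means (4 residual degrees of freedom). The fit was also run on simulated arrays whose noise was drawn independently for each gene and array. The arrays here share an axis of variance within groups, so that run does not show whether the calls hold for them. The number of arrays limits the precision.

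Groups came from the sample titles, and replicate numbers follow sample order and pair nothing. The 10 genes and 13 further lists were chosen with earlier results of these data known. All 10 genes are reported. From each list come genes that passed in any comparison or had one of the 4 smallest p-values over both lines, with Atf4 and relatives of the 10, and from the likeness ranking the first 5. Eif2ak3, Eif2ak4 and Pkm were named after their values were seen. Alternatives were other scaling, filters, probe set rules, variance models, treatments of the line and left-out samples. Leaving out pairs of line B samples was added after seeing the data.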

Additional observations from a re-analysis of the deposited data

How the results depend on the processing

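Over both lines, 1 of the 10 genes passed. The count was 0 with arrays shifted to a common median and with line as a random block, 2 with a trended and robust variance prior and without either pair of line B samples (PKM1 replicate 1 with PKM2 replicate 2, or PKM1 replicate 2 with PKM2 replicate 1), 4 with array weights, and 0 to 2 when a single sample was left out. Each pair is 1 end of the axis of variance within groups, so counts without a pair follow in part from the spread removed. Without a pair each line B group holds 1 sample, so the line A fit is that on the line A samples alone. In line A, where 0 passed, the count was 2 with array weights and 3 with the line A samples alone. In these settings 525 (array weights) and 543 of all genes passed, against 100. Between the lines with tamoxifen it was 1, Slc3a2, without the second pair. In line B and in the difference of the effects it was 0 in every setting run. The number of all genes passing over both lines, 263, was 983 with array weights, 58 to 353 with a sample left out, 106 with line as a random block, 132 with no term for the line, and 493 and 829 without the pairs.

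The adjusted p of Slc7a11 was 0.057 after the shift and 0.061 with the random block (limma). Some values that did not pass turned sign. Over both lines the Sesn2 change was 0.032 with array weights, 0.014 without the second pair and -0.22 to 0.13 with a sample left out, where Ddit3 had -0.006 to 0.088. In line A, left-out samples gave -0.18 to 0.087 for Sesn2 and -0.01 to 0.23 for Ddit3. In line B they gave -0.72 to 0.29 for Slc3a2, -0.33 to 0.12 for Slc7a1, -0.31 to 0.093 for Trib3, -0.061 to 0.055 for Ddit3 and -0.49 to 0.40 for Sesn2. Ddit3 was also at 0.016 with quantile normalization again and 0.012 without the first pair, where Trib3 was at 0.15, and Sesn2 was at 0.13 without the second. No paired analysis was possible because the labels give no replicate numbers. The causes of these shifts were not tested. With 2 samples per group, precision is limited by the number of arrays.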
